A study of Saccharomyces cerevisiae with 5 samples.

Results

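The genes described here lie on chromosome III of the budding yeast Saccharomyces cerevisiae. They are the rows of the expression table whose systematic name starts with YCL (left arm) or YCR (right arm), with a mean of at least 5 FPKM (fragments per kilobase of feature, scaled to the mapped fragments) and a value above 0 in all 5 strains. Of 6567 rows, 177 carried such a name, 8 of these failed the filters, and 13 more, listed under the processing, were left out by name. The remaining 156 genes are called members below, and 143 of them have a locus tag in the R64 annotation, all on chromosome III. The 13 without a tag are given by their ID alone. The chromosome was chosen because its genes were high in ies6d, so its level in that strain is given as a description and supports nothing. Just inside the threshold were SPS22, with a mean of 5.27 FPKM, and PAU3, with 5.58. The nearest row below it was YCL023C, with 3.80, while YCR102W-A, with a mean of 21.8, was outside because it is listed at 0 in WT.

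Poly(A) RNA came from unsynchronised cultures in exponential growth on rich medium. WT is BY4741 (MATa his31 leu20 met150 ura30 as the labels print the alleles). The labels give each of the other 4 strains as BY4741 with 1 gene of the INO80 chromatin remodelling complex replaced by the LEU2 marker. These are ino80::LEU2 (ino80d), arp8::LEU2 (arp8d), arp5::LEU2 (arp5d) and ies6::LEU2 (ies6d). The labels name 1 strain for each deletion. The LEU2 gene itself lies on chromosome III, was left out, and had 0.0619 FPKM in WT, while each mutant lay between 81.3 and 125. Every mutant thus carries both a deletion and LEU2, and the 2 cannot be told apart against WT. LYS2 and MET17, on other chromosomes, also differed between strains. LYS2 lay at 0.0138 FPKM in ino80d and 0.0390 in arp5d against 25.01 to 36.9 in the others. MET17 lay at 807 in ino80d and 564 in arp8d against 0.2005 to 0.571 in the others. In ino80d, arp8d and arp5d such differences from WT cannot be told apart from the deletion either. The same holds where ies6d is set against these strains, since each differs from it in LYS2, MET17 or both. Each strain has 1 value per gene, which stands for 2 biological replicates. There is therefore no replicate error and no test. Differences are described by size, and a value raised in 1 replicate cannot be told from one raised in both. Nor can a higher level in every cell be told from a higher level in part of the culture. The deleted genes lay between 0.0257 and 0.211 FPKM in their own strains. The depth of the libraries is unknown. The kit (TruSeq RNA v2) does not keep the strand. Of the annotated members, 10 overlap another annotated gene while 4 have a near-identical copy elsewhere, so their values are uncertain. Overlaps and copies of the members without a tag were not looked for, so some of these can share reads with other genes.

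Chromosome III is one of the smallest yeast chromosomes and carries the mating type loci: the expressed MAT locus on the right arm and the silent copies HML and HMR near the ends. INO80 is a motor complex that slides nucleosomes and acts on the histone variant H2A.Z at many promoters and replication origins on every chromosome. Arp5 and Ies6 form one module of the complex, Arp8 belongs to another, and Ino80 is the motor itself.

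Chromosome III stood above every other chromosome in ies6d. The log2 ratio of FPKM + 1 to WT had a median of 0.35 over the 156 members in ies6d, which is 1.28-fold, with quartiles of -0.07 and 0.66. The median was 0.12 in both ino80d and arp5d and 0.05 in arp8d. Over all 6150 rows that passed the same filters it was -0.02, -0.02, -0.02 and -0.03 in ino80d, arp8d, arp5d and ies6d. With annotated members only, chromosome III lay at 0.37 in ies6d. The other chromosomes apart from I lay between -0.09 and 0.11 in this strain, with XI at the top of that range, and chromosome I at 0.08. In ino80d, arp8d and arp5d chromosome III was at 0.13, 0.06 and 0.16. The highest of the 14 other chromosomes apart from I lay at 0.10, 0.07 and 0.13 in these strains, so the gap seen in ies6d was small or absent there.

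**Figure D1:**
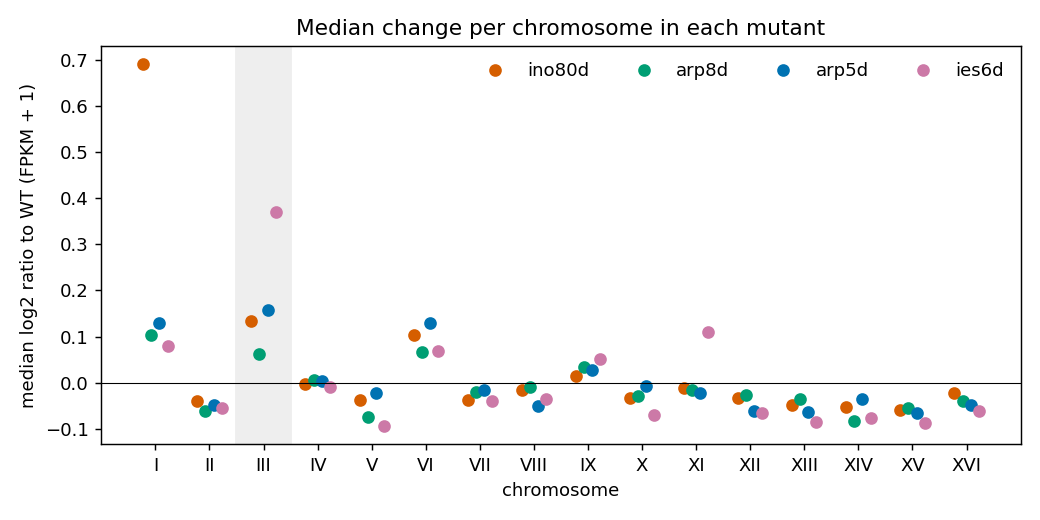
Median log2 ratio to WT (FPKM + 1, vertical axis) of the genes of each chromosome (horizontal axis) in the 4 mutants, 1 point per mutant. Chromosome III, shaded, lies at 0.37 in ies6d, while chromosome I lies at 0.69 in ino80d.

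Single genes of the chromosome shared the shift to very different degrees. In ies6d 49 of 156 members were at least 1.5-fold higher than WT, or 31.4%, where 14.2% of all rows were, and 6 were at least 1.5-fold lower, where 10.2% of all rows were. The counts of members at least 1.5-fold higher were 32 in ino80d, 20 in arp8d and 29 in arp5d, against 14.9%, 10.7% and 13.1% of all rows. Those at least 1.5-fold lower numbered 14, 8 and 12, against 13.2%, 8.21% and 10.9%. The 4 comparisons share the WT value, so a WT value that is unusual moves a gene in all of them.

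Setting ies6d against the mean of the other 3 mutants on the log2 scale leaves WT out, and here the shift was narrow. Each of these 3 differed from ies6d in LYS2, MET17 or both, which cannot be told apart from the deletions in this comparison. The median over the members was 0.23, which is 1.17-fold, with quartiles of 0.11 and 0.37, and over all rows it was 0.00. In 138 of 156 members ies6d was above that mean, where 50.7% of all rows were. In 105 members ies6d was above each of the other 3 mutants, against 29.2% of all rows. It was below each of the other 3 in 8 members, against 26.7%. No member lay 1.5-fold below the mean of the other 3, where 0.862% of all rows did, and 7 lay at least 1.5-fold above it, where 2.02% did. Of 46 members below WT in ies6d, 36 were above the mean of the other 3, a smaller share than the 138 of 156 among all members. This count was not made over all rows, and nothing is read from it.

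Short genes lay higher in ies6d over the other chromosomes, pooled, as well, and in each length class the median of the chromosome III members was above that of genes elsewhere. Over genes of up to 300 bp, ies6d over the other 3 mutants had a median log2 ratio of 0.48 for the 10 members and 0.25 for 228 genes elsewhere. Over genes of over 800 and up to 1200 bp the medians were 0.24 for 26 members and 0.04 for 1119 genes elsewhere. Over genes longer than 2000 bp they were 0.11 for 26 members and -0.11 for 1221 genes elsewhere. The gap between chromosome III and the rest was between 0.14 and 0.28 in all 6 length classes, and between 0.19 and 0.26 in 5 classes of expression level. After the median of its length class was taken from each of 143 members, their median was 0.22, and 124 lay above 0. Medians of the members were thus mostly lower in classes of longer genes, and values centred on the length class are given below where they change the picture.

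**Figure D2:**
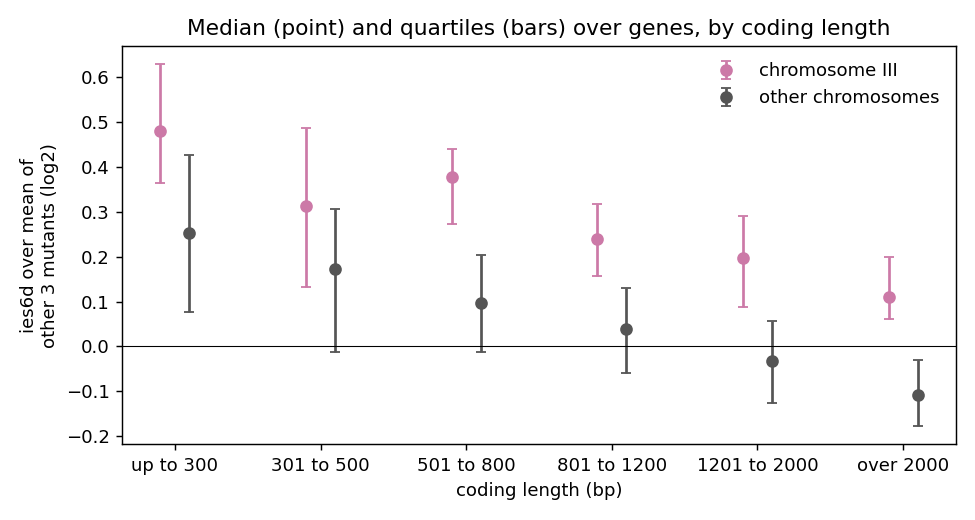
Log2 ratio of ies6d to the mean of the other 3 mutants (vertical axis) by class of coding length in bp (horizontal axis). Points are medians over genes and bars span the quartiles of those genes, for chromosome III and for all other chromosomes. Both series fall with length, from 0.48 to 0.11 on chromosome III and from 0.25 to -0.11 elsewhere.

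Against the other mutants the shift ran along the chromosome up to the right end, while against WT it was smallest in 2 inner blocks. The median log2 ratio of ies6d to WT was 0.35 over 55 members of the left arm and 0.36 over 101 of the right arm. Against the other 3 mutants the medians were 0.25 and 0.21. In 10 consecutive blocks of 14 or 15 annotated members, the first 9 blocks, from VAC17 to KIN82, had medians of ies6d over the other mutants between 0.18 and 0.33. The last block, from MSH3 to AAD3, had 0.08. Against WT the block medians in ies6d were 0.11 from BIK1 to ILV6 and 0.09 from TAH1 to EGO2, between 0.33 and 0.52 in the other 8 blocks, and 0.33 in the last. Its final 8 members, to the right of HMRA1, run from YCR099C to AAD3 (chromosome III, 300832 to 314981 on R64). Their median of ies6d over the other mutants was -0.02, with 4 of 8 above 0. The same 8 had median log2 ratios to WT of 0.60, 0.49, 0.46 and 0.42 in ino80d, arp8d, arp5d and ies6d. The median was thus above WT in each mutant and not highest in ies6d. Single genes differed: ADH7 and AAD3 were highest in ies6d, while PAU3 and RDS1 were below WT in it. The leftmost member, VAC17, also lay at -0.06 against the other mutants. On both sides of the centromere, at 114385 to 114501, YCL001W-B lay at 0.47 and YCR001W at 0.06.

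**Figure D3:**
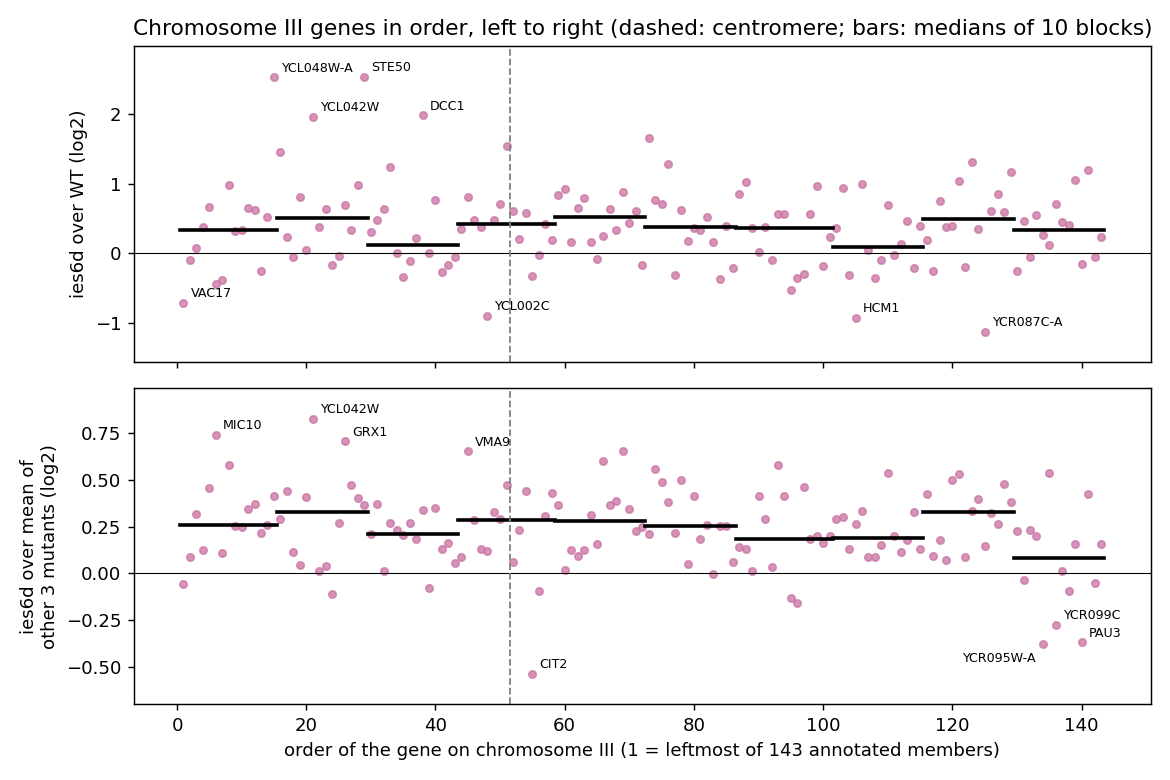
Log2 ratio of ies6d to WT (upper panel) and to the mean of the other 3 mutants (lower panel) for 143 annotated genes in their order along chromosome III (horizontal axis), 1 point per gene. Black bars are medians of 10 blocks and the dashed line marks the centromere. In the lower panel the bars lie between 0.18 and 0.33 until the last block, at 0.08.

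Of the genes that departed from the shift against WT in ies6d, a part departed in every mutant. A departure is here the log2 ratio of a member to WT less the median of the members in the same strain. In ies6d 21 members lay at least 1.5-fold above the members' median and 23 at least 1.5-fold below. Around the median of all rows, 14.9% and 9.59% of all rows lie this far off. Of the 21, 10 departed upward by 1.5-fold in each of the other 3 mutants as well, and of the 23, 7 departed downward in each. Of all rows, 874 were at least 1.5-fold higher than WT in ies6d, and 487 were so in all 4 mutants. At least 1.5-fold lower were 628 in ies6d and 292 in all 4. Such sharing is thus common in the whole table, and nothing particular to the chromosome is read from it. Measured against the other 3 mutants in place of WT, 1 member, YCL042W, lay 1.5-fold above the members' median ratio, and 4 lay 1.5-fold below, CIT2, PAU3, YCR095W-A and YCR049C. At least 1.5-fold higher than WT in all 4 mutants were 16 members, where 7.92% of all rows were, and 3 were lower in all 4, HCM1, YCL002C and YCR049C, where 4.75% were.

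**Figure D4:**
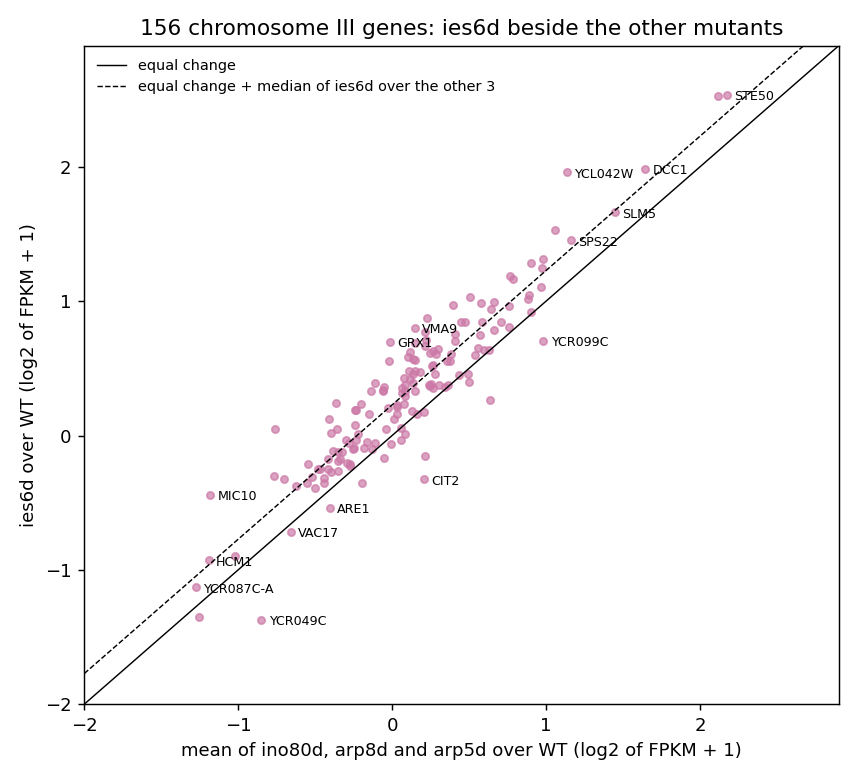
Log2 ratio to WT of 156 members in ies6d (vertical axis) against the mean of ino80d, arp8d and arp5d (horizontal axis), 1 point per gene. The solid line marks equal change and the dashed line lies higher by the median of 0.23. Points follow the dashed line from HCM1 to STE50, and CIT2 lies below both lines. Both axes contain the WT value, which by itself pulls points along the diagonal.

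STE50 (YCL032W, chromosome III, 63441 to 64481), which encodes the adaptor of the kinase Ste11 in the mating and osmotic stress pathways, was furthest above the shift. It lay at 15.1 FPKM in WT, with ino80d at 70.4, arp8d at 68.9, arp5d at 76.5 and ies6d at 92.7. All 4 mutants were thus more than 4-fold above WT, with log2 ratios of 2.12 to 2.54, and ies6d was highest by a margin of 0.36 over the mean of the others. DCC1 (YCL016C, 94621 to 95763), a subunit of the Ctf18 clamp loader that acts in sister chromatid cohesion, followed at 14.8 FPKM in WT, with ino80d at 50.3, arp8d at 43.5, arp5d at 51.5 and ies6d at 61.5. The mutants did not overlap WT and lay close together. SLM5 (YCR024C), the mitochondrial asparaginyl-tRNA synthetase, had 12.2 FPKM in WT, with ino80d at 39.3, arp8d at 29.4, arp5d at 36.9 and ies6d at 40.6. For these 3 genes the excess of ies6d over the other mutants was 0.36, 0.34 and 0.21, near the common 0.23, while their excess over WT was present in every mutant. YCL048W-A (41488 to 41727), an ORF of 240 bp without a name, had a departure in ies6d almost as large as that of STE50, at 12.6 FPKM in WT and 73.1, 53.2, 49.5 and 77.4 in ino80d, arp8d, arp5d and ies6d. It is named here after its values were seen.

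The promoters of STE50 and DCC1 are shown because they were the 2 genes furthest above the shift among annotated ORFs of at least 300 bp. Each window holds the 250 bases before the start codon and its first 50 bases, read 5′ to 3′ on the coding strand from the RefSeq R64 genome, and is searched on both strands for AGGGG, the stress response element bound by Msn2 and Msn4, and GATGAG, the PAC element. Matches would be in capitals, and neither window holds one.
STE50, plus strand, chrIII:63191-63490: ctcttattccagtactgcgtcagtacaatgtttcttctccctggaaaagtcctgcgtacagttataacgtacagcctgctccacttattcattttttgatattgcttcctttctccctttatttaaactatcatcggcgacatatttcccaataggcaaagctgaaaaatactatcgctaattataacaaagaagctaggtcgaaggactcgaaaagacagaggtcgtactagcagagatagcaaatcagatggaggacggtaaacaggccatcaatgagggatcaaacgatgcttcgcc
DCC1, minus strand, chrIII:95714-96013: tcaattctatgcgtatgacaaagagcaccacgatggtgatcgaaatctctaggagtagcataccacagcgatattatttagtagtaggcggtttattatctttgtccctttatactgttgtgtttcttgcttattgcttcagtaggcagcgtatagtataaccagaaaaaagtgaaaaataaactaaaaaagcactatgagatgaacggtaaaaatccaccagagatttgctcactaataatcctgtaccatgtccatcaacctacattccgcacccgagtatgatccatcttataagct
Of 6020 such windows of all protein coding genes, 21.6% hold AGGGG and 20.3% hold GATGAG. Of the 20 annotated members at least 1.5-fold above the members' median in ies6d, 6 hold AGGGG, or 30.0%, and of the 19 annotated members as far below, 6 do, or 31.6%, where 24.5% of all 143 members do. GATGAG is in 5 of the 20 above and in 2 of the 19 below, or 10.5%, where 18.9% of all members hold it.

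The remaining genes furthest above the shift were weakly expressed, apart from YCL042W. SPS22 (YCL048W), needed for the glucan layer of the spore wall, lay at 2.00 FPKM in WT and between 5.30 and 7.21 in the mutants. FRM2 (YCL026C-A), of the nitroreductase family, had 6.86 FPKM in WT and 13.1, 13.9, 16.6 and 17.6 in ino80d, arp8d, arp5d and ies6d. ADH7 (YCR105W), an alcohol dehydrogenase that uses NADPH, lay at 13.7 in WT and between 20.4 and 32.6 in the mutants, and KIN82 (YCR091W), a protein kinase, at 6.88 in WT and 11.5 to 16.7. Each of these 4 genes was highest in ies6d. YCL042W (50584 to 50943) lay at 48.5 FPKM in WT, with ino80d at 80.8, arp8d at 120, arp5d at 128 and ies6d at 192. It overlaps GLK1, the glucokinase gene, for which WT, ino80d, arp8d, arp5d and ies6d had 93.0, 194, 328, 313 and 531 FPKM. The 2 genes lie on the same strand, so reads of the shared stretch cannot be told apart.

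YCR085W and YCR025C, ORFs without a name, shared another pattern. YCR025C (163446 to 163856) had 7.68 FPKM in WT and stood at 7.75 in arp8d, but at 21.7 in ino80d, 20.7 in arp5d and 20.2 in ies6d. YCR085W (262916 to 263269) had 7.74 FPKM in WT and stood at 9.56 in arp8d, but at 20.6, 21.5 and 20.8 in ino80d, arp5d and ies6d. arp8d stayed with WT in both, apart from the other mutants. Among the members 5 lay at least 1.5-fold lower in arp8d than in the mean of the other 3 mutants, where 2.18% of all rows did, the others being YCL007C, YCR038W-A and SRD1. Of these, YCL007C and YCR038W-A are not in the annotation. At least 1.5-fold higher in arp8d were 2 members, YCR087C-A and YCR087W, where 2.20% of all rows were. Whether these 2 count the same reads was not checked.

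**Figure D5:**
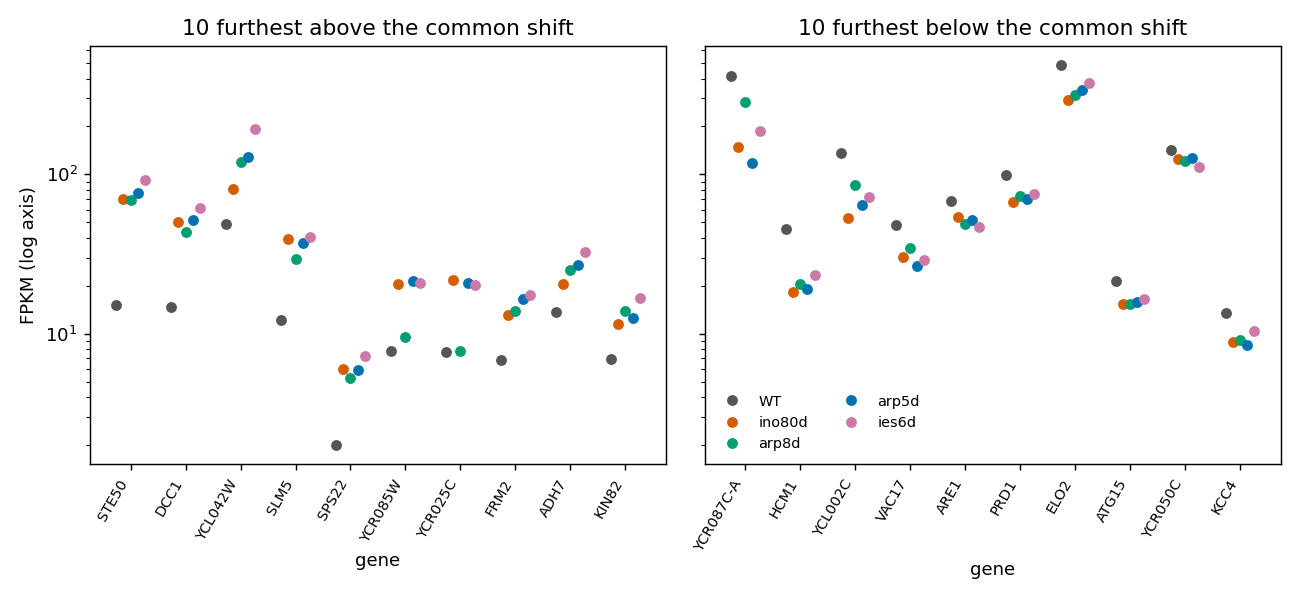
FPKM (logarithmic axis) in the 5 strains of the 10 annotated ORFs of at least 300 bp furthest above (left) and furthest below (right) the common shift in ies6d, 1 point per strain. STE50 and DCC1 show 1 low point for WT and 4 close points for the mutants, and in YCR085W and YCR025C arp8d lies beside WT.

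YCR087C-A, an ORF without a name in the annotation, was furthest below the shift among annotated ORFs. It lay at 414 FPKM in WT, with ino80d at 148, arp8d at 284, arp5d at 118 and ies6d at 189, so that ies6d was lower than WT and arp8d. YCR087W, which is not in the annotation, had a like order, at 45.01 FPKM in WT, with ino80d at 14.9, arp8d at 31.3, arp5d at 12.98 and ies6d at 17.1. Whether both rows count the same reads was not checked. HCM1 (YCR065W, 229310 to 231004), a forkhead transcription factor of S phase, lay at 45.1 FPKM in WT, with ino80d at 18.2, arp8d at 20.6, arp5d at 19.0 and ies6d at 23.3. All mutants were about 2-fold below WT, with log2 ratios of -1.27 to -0.93, and ies6d was the highest of the 4, at 0.26 above the mean of the other mutants. YCL002C (110808 to 111675) lay at 136 FPKM in WT, with ino80d at 53.4, arp8d at 85.5, arp5d at 64.5 and ies6d at 72.4.

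VAC17 (YCL063W), the receptor that links the vacuole to the myosin Myo2 during inheritance, lay at 48.3 FPKM in WT, with ino80d at 30.2, arp8d at 34.5, arp5d at 26.5 and ies6d at 29.1. ies6d was here within the range of the other mutants. The same held for no other of the 10 genes furthest below except YCR087C-A and YCL002C. ARE1 (YCR048W), a sterol acyltransferase, had 68.5 FPKM in WT and 54.02, 48.6, 51.9 and 46.9 in ino80d, arp8d, arp5d and ies6d, so that ies6d was the lowest strain. YCR050C, which overlaps it on the other strand, had 143 FPKM in WT and then 126, 121, 127 and 111, and was lowest in ies6d too. For ELO2 (YCR034W), a fatty acid elongase, the order was reversed, with 487 FPKM in WT and 292, 317, 338 and 376 in ino80d, arp8d, arp5d and ies6d. PRD1, a metalloendopeptidase, the vacuolar lipase ATG15 and the bud neck kinase KCC4 had log2 ratios to WT in ies6d of -0.39, -0.35 and -0.35, and were above the mean of the other mutants by 0.11, 0.09 and 0.21.

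CIT2 (YCR005C, 120946 to 122328), the peroxisomal citrate synthase, was the named gene with the lowest value in ies6d relative to the other mutants. It lay at 40.6 FPKM in WT, with ino80d at 46.1, arp8d at 53.8, arp5d at 42.01 and ies6d at 32.1. ies6d was below all 4 other strains, with a log2 ratio of -0.54 to the mean of the other mutants, or -0.51 after the median of its length class was taken off. The next lowest annotated genes, YCR095W-A, PAU3 and YCR099C, were near the right end, at -0.38, -0.37 and -0.28. After centring on length they lay at -0.63, -0.54 and -0.45, so that YCR095W-A and PAU3 were then below CIT2. YCR095W-A, of 159 bp, lay at 53.4 FPKM in WT, with ino80d at 93.6, arp8d at 87.2, arp5d at 71.8 and ies6d at 64.3. YCR099C had 15.3 FPKM in WT and 28.7, 35.6, 29.9 and 25.7 in ino80d, arp8d, arp5d and ies6d, and it overlaps EMA35. PAU3, of a cell wall protein family with 5 near-identical copies in the genome, lay at 4.97 FPKM in WT and 8.82, 5.80, 3.97 and 4.37 in the mutants, and its value is uncertain. SRO9, an RNA binding protein, lay between 5.24 and 6.09 FPKM in all strains, at -0.11 against the other mutants. YCR049C, which is not in the annotation, lay at 19.2 FPKM in WT and 10.1, 8.68, 12.1 and 6.81 in ino80d, arp8d, arp5d and ies6d.

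The 7 members at least 1.5-fold above the mean of the other mutants in ies6d were GRX1, MAK31, MIC10, SRD1, VMA9, YCL042W and YCR038W-A, most of them short. Of these, MIC10 was highest in WT. YCR038W-A was highest in arp5d, at 519 FPKM, with WT at 264, ino80d at 132, arp8d at 54.3 and ies6d at 273. GRX1 (YCL035C, 60841 to 61173), a glutaredoxin, lay at 872 FPKM in WT, with ino80d at 821, arp8d at 796, arp5d at 995 and ies6d at 1415. ies6d was apart from the other 4 strains, 0.71 above the mean of the other mutants and 0.53 after centring on length. IMG1 (YCR046C), a protein of the large subunit of the mitochondrial ribosome, lay at 266 FPKM in WT, with ino80d at 225, arp8d at 307, arp5d at 262 and ies6d at 392. PEX34, a peroxisomal membrane protein, lay at 93.4, 134, 112, 124 and 184 FPKM in WT, ino80d, arp8d, arp5d and ies6d, and SRD1, a protein of ribosomal RNA processing, at 101, 93.6, 63.6, 80.9 and 120. GRX1, IMG1, PEX34 and SRD1 each had their highest value in ies6d. RIM1, a single-stranded DNA binding protein of mitochondria, was among the members of highest level, with 833 FPKM in WT, 703, 864 and 857 in the other mutants and 1072 in ies6d. PMP1 (YCR024C-A), a small proteolipid that regulates the plasma membrane proton pump, had the highest FPKM of the members, at 72301 in WT, with ino80d at 84990, arp8d at 77849, arp5d at 90332 and ies6d at 118238. Its ORF spans 123 bp and has a near-identical copy, so both the level and the assignment of its reads are uncertain.

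Genes for mitochondrial proteins had the highest median of the role lists with more than 1 member in ies6d. The lists hold members grouped by textbook function. Their counts of genes 1.5-fold from WT in ies6d stand beside 31.4% higher among all members, and 14.2% higher and 10.2% lower among all rows, and nothing particular to a list is read from them. Of 11 mitochondrial members 6 were at least 1.5-fold higher in ies6d than WT and none as much lower, with median log2 ratios of 0.12, 0.32, 0.32 and 0.69 in ino80d, arp8d, arp5d and ies6d, against -0.03 over all rows in ies6d. ies6d was above the mean of the other mutants in all 11, with a median of 0.40. Many of these genes are short, and after centring on length the median was 0.24, close to the 0.22 of all members. TRX3, the mitochondrial thioredoxin, lay at 109 FPKM in WT, 157, 158 and 149 in ino80d, arp8d and arp5d and 223 in ies6d. MXR2, a mitochondrial methionine sulfoxide reductase, lay at 123 FPKM in WT and 191, 179, 182 and 244 in the mutants in the same order. MIC10 (YCL057C-A), a core subunit of the MICOS complex that shapes the inner membrane, was the one member of the list far below the shift. It lay at 733 FPKM in WT, with ino80d at 287, arp8d at 303, arp5d at 386 and ies6d at 540, so that it was below WT everywhere and least so in ies6d.

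Genes of ribosome biogenesis were close to WT in ies6d and above the other mutants. KRR1, SPB1, PWP2, BUD23 and RSA4, factors that build the small or the large ribosomal subunit, had median log2 ratios to WT of -0.16, -0.24, -0.21 and 0.08 in ino80d, arp8d, arp5d and ies6d. None of the 5 was 1.5-fold from WT in any mutant, and in all 5 ies6d was above the mean of the other mutants, by 0.16 to 0.41. KRR1 lay at 337 FPKM in WT, with ino80d at 284, arp8d at 280, arp5d at 291 and ies6d at 356. PWP2 lay at 105 FPKM in WT, 81.3, 82.9 and 81.5 in ino80d, arp8d and arp5d and 91.8 in ies6d. BUD23, a methyltransferase of 18S rRNA, lay at 120 FPKM in WT, 132 to 135 in the first 3 mutants and 178 in ies6d.

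All 5 promoters of this list are shown because most of them hold PAC, an element known from genes of ribosome biogenesis. The list was thus picked for display by its matches, and their number supports nothing. PAC (GATGAG, searched on both strands), to which the repressors Dot6 and Tod6 bind, is in capitals and was present in 4 of 5 windows, where 20.3% of all 6020 windows hold it. Windows and genome are as for STE50 above.
KRR1, minus strand, chrIII:23330-23629: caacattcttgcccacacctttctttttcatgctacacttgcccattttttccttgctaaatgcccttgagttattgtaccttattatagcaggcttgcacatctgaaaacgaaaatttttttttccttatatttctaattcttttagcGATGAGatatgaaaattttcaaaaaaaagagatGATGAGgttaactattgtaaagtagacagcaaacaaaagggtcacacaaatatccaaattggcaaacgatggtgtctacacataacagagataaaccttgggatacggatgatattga
PWP2, minus strand, chrIII:223179-223478: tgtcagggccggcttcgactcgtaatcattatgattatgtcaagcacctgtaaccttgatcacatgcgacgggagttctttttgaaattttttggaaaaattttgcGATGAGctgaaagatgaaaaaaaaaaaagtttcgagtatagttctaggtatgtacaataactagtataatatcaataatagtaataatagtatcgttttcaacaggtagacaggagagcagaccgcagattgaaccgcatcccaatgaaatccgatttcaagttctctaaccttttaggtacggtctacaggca
BUD23, minus strand, chrIII:211496-211795: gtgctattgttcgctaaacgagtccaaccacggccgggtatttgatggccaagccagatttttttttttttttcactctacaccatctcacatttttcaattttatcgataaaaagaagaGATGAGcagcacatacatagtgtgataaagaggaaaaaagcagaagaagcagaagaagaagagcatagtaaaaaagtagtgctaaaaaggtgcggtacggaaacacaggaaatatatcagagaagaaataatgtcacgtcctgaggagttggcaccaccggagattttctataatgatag
RSA4, minus strand, chrIII:242303-242602: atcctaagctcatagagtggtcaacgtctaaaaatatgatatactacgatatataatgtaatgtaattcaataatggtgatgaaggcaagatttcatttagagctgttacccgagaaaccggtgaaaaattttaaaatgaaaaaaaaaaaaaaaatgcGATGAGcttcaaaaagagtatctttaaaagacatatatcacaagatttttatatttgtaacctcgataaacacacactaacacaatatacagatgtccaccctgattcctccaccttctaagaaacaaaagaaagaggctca
SPB1, plus strand, chrIII:31199-31498: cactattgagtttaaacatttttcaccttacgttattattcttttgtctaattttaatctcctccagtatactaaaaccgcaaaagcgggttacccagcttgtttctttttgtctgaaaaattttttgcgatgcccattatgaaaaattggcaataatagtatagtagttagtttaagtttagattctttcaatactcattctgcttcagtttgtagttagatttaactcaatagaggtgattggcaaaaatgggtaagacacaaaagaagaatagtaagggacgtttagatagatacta
KRR1 holds 2 copies and SPB1 none. Among all 143 members with a window 18.9% hold the element, close to the share in the genome. The 5 genes were put in the list by function, and a match describes letters in the window, not binding.

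Genes of RNA binding and mRNA fate had the lowest median of the lists against WT in ies6d. Against the other mutants their median was 0.13, above those of membrane transport and of the vacuole list at 0.09, and ies6d was above the mean of those mutants in 4 of 5, all but SRO9. None of the 5 was above the members' median in ies6d, 3 departed downward by 1.5-fold, where 23 of 156 members and 9.59% of all rows did, and their median log2 ratios to WT were -0.39, -0.36, -0.38 and -0.26 in ino80d, arp8d, arp5d and ies6d. GBP2, an export adaptor, lay at 302 FPKM in WT, 230, 235 and 221 in ino80d, arp8d and arp5d and 250 in ies6d. PAT1, an activator of decapping, lay at 108 FPKM in WT, with ino80d at 81.5, arp8d at 90.6, arp5d at 81.8 and ies6d at 90.3. The splicing factor BUD31 lay at 33.5 FPKM in WT and between 22.3 and 27.8 in the mutants.

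Genes of the endoplasmic reticulum, lipid synthesis and secretion also had a median near WT in ies6d, at a log2 ratio of -0.00 over 12 members. Of these, 1 was 1.5-fold higher and none lower. Single members ran from -0.54 for ARE1 to 0.64 for PBN1, and 4 lay above the members' median. The 12 members had medians of -0.25, -0.19 and -0.10 in ino80d, arp8d and arp5d, and ies6d was above the mean of these in 11 of 12, all but ARE1. PDI1, protein disulfide isomerase, lay at 519 FPKM in WT, with ino80d at 393, arp8d at 352, arp5d at 478 and ies6d at 538. CWH43 and CPR4, of lipid anchor remodelling and protein folding, lay at -0.09 and -0.10 in ies6d against WT.

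Of 6 genes of DNA replication and repair, 3 were at least 1.5-fold higher in ies6d than WT and none as much lower, against 14.2% and 10.2% of all rows. DCC1 is given above. RAD18, the ubiquitin ligase of damage tolerance, lay at 16.6 FPKM in WT, 26.5, 26.5 and 27.4 in ino80d, arp8d and arp5d and 34.0 in ies6d. MSH3 of mismatch repair lay the other way, with 18.5 FPKM in WT, 11.8, 13.5 and 13.7 in those mutants and 15.3 in ies6d, and MRC1, the checkpoint mediator at forks, lay between 16.1 and 19.3 FPKM in all strains. Among 11 genes of transcription and chromatin none was 1.5-fold higher and 1, HCM1, was as much lower. TUP1, a general corepressor, lay at 145 FPKM in WT, 112 to 122 in ino80d, arp8d and arp5d and 126 in ies6d. RSC6, a subunit of the RSC remodeller, lay at 99.6 FPKM in WT, with ino80d at 142, arp8d at 116, arp5d at 132 and ies6d at 147. SGF29 of the SAGA complex lay at 89.1 FPKM in WT and 85.3, 66.6, 61.4 and 78.9 in the mutants.

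Among 9 genes of bud site choice and the cytoskeleton 3 were at least 1.5-fold higher in ies6d and 1, VAC17, was as much lower, against 14.2% and 10.2% of all rows. The share that was higher is about that of all members, 31.4%. RVS161, an amphiphysin-like protein of endocytosis, lay at 320 FPKM in WT, with ino80d at 431, arp8d at 420, arp5d at 489 and ies6d at 574. BUD5, an exchange factor for the bud site GTPase, lay at 8.94 FPKM in WT and between 13.1 and 16.8 in the mutants. It overlaps MATALPHA2 on the annotated chromosome. Of 8 genes of membrane transport 3 were 1.5-fold higher in ies6d and none lower, against the same 14.2% and 10.2%, with a median of 0.17. ADY2, an acetate transporter, lay at 7.89 FPKM in WT and between 14.7 and 16.7 in the mutants, with ies6d level with the other mutants at 0.02. PHO87, a low-affinity phosphate transporter, had 51.1 FPKM in WT and 36.2, 46.6, 44.3 and 43.99 in the mutants, and ERS1, of cystine transport, 59.4 in WT and 38.9, 44.3, 38.3 and 51.1. VBA3 and GEX1 of the same list lay below the threshold, near 0 in all strains.

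Of 5 genes of vacuole, endosome and protein turnover 1 was 1.5-fold higher in ies6d and none lower, and ies6d was above the mean of the other mutants in all 5. VMA9, a membrane subunit of the vacuolar proton pump, lay at 2840 FPKM in WT, with ino80d at 3167, arp8d at 2879, arp5d at 3408 and ies6d at 4949. Of 12 genes of metabolic enzymes and redox proteins 4 were 1.5-fold higher and none lower, against 14.2% and 10.2% of all rows and 31.4% of members higher, with a median of 0.42, and all but CIT2 were above the mean of the other mutants. NPP1, a nucleotide pyrophosphatase, lay at 43.0 FPKM in WT, with ino80d at 26.0, arp8d at 34.2, arp5d at 29.2 and ies6d at 34.5.

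HMRA1 (YCR097W, 293835 to 294321) was the one row of the mating type list that was measured. It lay at 269 FPKM in WT, with ino80d at 210, arp8d at 181, arp5d at 217 and ies6d at 294. The strains are MATa, so that the same a1 sequence stands at MAT as well as at HMR, and the row cannot tell the expressed from the silent copy.

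Members with partner genes on other chromosomes mostly lay above them in ies6d. The chromosome was chosen for its level in that strain, so this is a description and supports nothing. For 33 members, each set against the median of 1 to 27 genes for subunits or direct partners of its protein, the log2 ratio of ies6d to WT was higher than that of the partners in 27, with a median difference of 0.39. Against the other mutants it was higher in 29 of 33, with a median difference of 0.28. Of all members, 138 of 156 were above the mean of the other mutants in any case. VMA9 stood at 0.65 against the other mutants, where 13 other genes of the pump lay between -0.11 and 0.32. The septin gene CDC10 stood at 0.23, where CDC3, CDC11, CDC12 and SHS1 lay between -0.07 and 0.03. IMG1 and IMG2 stood at 0.58 and 0.54, where 27 genes of the same ribosomal subunit had a median of 0.16 and a highest value of 0.46. VMA9 and IMG2 are short, and after centring on length they lay at 0.40 and 0.37.

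Some departures from WT were not seen in the median of the partners. MIC10 stood at -0.44 against WT in ies6d, where 5 other MICOS genes had a median of 0.78. DCC1 stood at 1.98, where 6 genes of the clamp loader had a median of -0.26, and STE50 at 2.54, where its partner STE11 lay at 0.24. MGR1, an adaptor of the mitochondrial i-AAA protease, stood at 0.80, where its 2 partners had a median of -0.18. Against the other mutants the exceptions, lower than their partners, were EMC1, GID7, PAT1 and STP22, with differences of -0.16 to -0.04. RSC6 and HTL1 share 1 set of partners, as do IMG1 and IMG2, so these pairs are not independent.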

How the data were processed

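The deposited table holds FPKM values, computed by the authors from poly(A) libraries of 5 strains, with 1 value per strain for 2 biological replicates. Per the submitters' processing notes, TopHat2 and Cuffdiff were used on genome build sacCer3; versions, annotation and library size setting are not given in the sources used here. All 5 columns were used. Names, positions and coding lengths come from the R64 annotation, the same assembly as sacCer3. A copy was called near-identical at 90% identity or more over at least 50% of the length (blastn 2.17.0).

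The measure was log2(FPKM + 1), which understates changes of low genes, without rescaling between strains. The 13 genes left out by name were GIT1, CHA1, HIS4, THR4, HSP30, GLK1, PGK1, FUS1, LEU2, RPS14A, MRPL32, RRP7 and RRP43. The members and lists were chosen with earlier results of these data known. With 1 value per strain no test, interval or detection limit was computed, and thresholds are folds (1.5). The code was tested on simulated data with a known shift.

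Genes were named by a rule over annotated ORFs of at least 300 bp without a near-identical copy: the 10 furthest above and below the members' median in ies6d, the 5 highest and lowest against the other mutants, the 3 of highest FPKM, the ends of the chromosome and the centromere, up to 4 of each role list, and members with partner genes. Genes named outside it (YCL048W-A, YCR095W-A, YCL007C, YCR038W-A, YCR049C, YCR087W) were chosen after their values were seen.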

Additional observations from a re-analysis of the deposited data

Results flagged for a closer look

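YCR102W-A, on the right end of the chromosome, was outside the members because it is listed at 0 in WT. It had a mean of 27.2 FPKM over the 4 mutants, with ino80d at 30.1, arp8d at 11.3, arp5d at 46.1 and ies6d at 21.3. It drew attention as a signal in a row that no comparison used, above the value of WT. A value of 0 in a table without counts can be a failed estimate, so no fold is given.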

How the results depend on the processing

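No paired analysis was possible because each strain has 1 value and the labels number no replicates, and no replicate could be left out. The medians of the members in each mutant, their median against the other mutants, both arm medians and the partner results against WT moved by less than 0.1 (log2) or 1.5 times (counts) under every alternative tried for them: pseudocounts of 0.1 and 5 FPKM, a mean of at least 20 FPKM, no minimum mean, centring each strain, ORFs of at least 300 bp without overlap or copy, the 13 genes put back and, for the medians, the mean. Centring on length class and leaving out the 8 genes right of HMRA1, both chosen after the data were seen, moved the medians and departure counts they were tried on no further than that. The limit of 0.1 is near or above the medians of ino80d, arp8d and arp5d themselves, at 0.12, 0.05 and 0.12, so it says little about these. That of arp8d ran from 0.02 with a mean of at least 20 FPKM to 0.11 with centring on length class. The partner results against the other mutants were not varied.

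Counts of members past the fold threshold moved more. At 2-fold, the higher and lower counts were 8 and 5 in ino80d, 8 and 4 in arp8d, 12 and 4 in arp5d and 16 and 3 in ies6d, and the departures in ies6d 7 above and 6 below. Measured from the other 3 mutants, departures numbered 1 above and 4 below. With a mean of at least 20 FPKM, 19 members were higher in ino80d and 18 in arp5d. With ORFs of at least 300 bp without overlap or copy, 21 were higher and 9 lower in ino80d and 5 lower in arp8d. With a pseudocount of 5 FPKM, 13 were higher in arp8d. With means in place of medians, the highest block of the chromosome was at 0.70 in ies6d in place of 0.52. Fewer members tested, a stricter fold or a larger pseudocount lower such counts by construction. Of 58 named genes, the log2 ratio of ies6d to WT moved by 0.1 or more in 14 with a pseudocount of 5 FPKM and in 2 with 0.1 FPKM, and none that was 1.5-fold from WT changed sign. The unknown depth limits the low genes most, among them SPS22, PAU3, FRM2 and KIN82.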
